A study of Mus musculus with 6 samples.

Results

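The 9 genes described here are *Itga1*, *Itga2*, *Itgae*, *Itgam*, *Cd69*, *Cxcr6*, *S1pr1*, *S1pr5* and *Klf2*, a set chosen by name for its use in telling tissue-resident from circulating lymphocytes. All 9 were in the count table, and they were followed in the 14877 cells of 7 lymphocyte labels (NK cells, ILC, NKT, T cell EFF, T cell MEM, T cell Naive and T cells) among 33961 cells of 12 labels. The cells came from tumors of CT26, a colon carcinoma line of the mouse, that had been implanted subcutaneously in Balb/c females, and were enriched for CD45, a surface protein of leukocytes. Tumors were taken 5 days after treatment with vehicle or with a low or high dose of a mouse anti-PD-1–GITR-L bispecific, a checkpoint antibody fused to a costimulatory ligand. The sample labels list 2 tumors in each of these 3 groups, give 30 mg/kg for the high dose and give both 10 and 30 mg/kg for the low dose, and they state no age. The table holds 4 libraries, M1, M2, M5 and M6, and none of these names occurs in a sample label, so no library was assigned to a treatment. Each value is therefore given per library or pooled, no p-value is given, and nothing here compares the bispecific with vehicle.

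Lymphocytes that stay in a tissue are held there by adhesion and by the loss of exit signals. *Itga1* and *Itga2* encode the α1 (CD49a) and α2 (CD49b) chains of the collagen receptors, which pair with the β1 chain. *Itgae* encodes αE (CD103), which pairs with β7 and binds E-cadherin on epithelia, and *Itgam* encodes αM (CD11b), which pairs with β2 and marks myeloid cells and mature NK cells. *Cxcr6* encodes the receptor of the chemokine CXCL16. *S1pr1* and *S1pr5* encode receptors for sphingosine 1-phosphate, the lipid that draws cells out of tissues, and *S1pr5* serves mostly NK cells. The transcription factor KLF2 drives *S1pr1* transcription, and CD69 is an activation protein that removes the S1PR1 protein from the cell surface. In textbook descriptions of the mouse, tissue-resident innate cells carry CD49a without CD49b, and circulating NK cells carry CD49b without CD49a.

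The count of unique molecular identifiers (UMIs) of a gene, added up within a label and expressed per 1e6 UMIs (CPM), is called its level. Intervals are exact 95% intervals and cover counting error only. The lymphocyte cells of a library numbered 3050 to 4383, at medians of 7088 to 8242 UMIs per cell. Shares of cells were counted after each cell had been thinned at random to 2000 UMIs, which left out 488 of the 14877 cells. In all, 111 barcodes occurred in more than 1 library. The authors gave each cell its label from these same expression profiles, by correlation with reference profiles of immune cells (ImmGen). Differences between labels, here and below, can thus be partly set by the labelling, and how far was not tested. The labels were checked against markers. The NK marker list (*Eomes*, *Gzma*, *Klrb1c*, *Ncr1* and *Prf1*) summed to 17808 CPM in NK cells and to 9651 in ILC, against 1526 in T cell EFF. Of the ILC, 2138 of 4628 carried a UMI of *Cd3d*, *Cd3e* or *Cd3g*, and 1131 of 4398 NK cells did. *Zbtb16*, the defining transcription factor of NKT cells, had 33.4 CPM in the NKT label, where 36.1% of cells also held a UMI of *Foxp3*, the factor that defines regulatory T cells, so the label is used below as a name only. The ILC marker list (*Il7r*, *Rora* and *Tnfsf10*) summed to 301 CPM in ILC and 58.2 in NK cells but to 365 in T cell EFF and 1086 in NKT, so it did not set ILC apart from T cells. Macrophage markers summed to 240 CPM in NK cells and to 936 in ILC. No cell was removed here for free RNA or doublets, and their part in the results was not tested beyond the left-out cells given in the closing section.

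*Itga1* and *Itga2* lie near each other on the minus strand of chromosome 13 of GRCm38, at 114953096 to 115101964 and 114833081 to 114932100 (GENCODE M21), 20995 bases apart with 1 annotated gene, *Gm47776*, between them. *Pelo* and *Gm49395* overlap *Itga1* on the same strand, and *Itga2* overlaps no annotated gene. The 250 bases before the RefSeq start were found for 6 of the 9 genes and not for *Itgae*, *Cd69* and *S1pr1*. Those of *Itga1* and *Itga2*, whose UMIs define the 2 groups of NK cells compared below, and of *S1pr5*, highest in NK cells, are shown. They were read on the gene's strand, 5′ to 3′, from GRCm38.p6 chr13:115101965-115102214, chr13:114932101-114932350 and chr9:21248444-21248693, all on the minus strand. Capitals mark CACCC or its reverse complement GGGTG, the core bound by factors of the KLF family.
Itga1: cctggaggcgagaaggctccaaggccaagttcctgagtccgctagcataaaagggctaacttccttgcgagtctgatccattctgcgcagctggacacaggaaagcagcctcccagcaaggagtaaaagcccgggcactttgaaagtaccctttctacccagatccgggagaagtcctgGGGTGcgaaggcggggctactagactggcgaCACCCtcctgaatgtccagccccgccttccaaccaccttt
Itga2: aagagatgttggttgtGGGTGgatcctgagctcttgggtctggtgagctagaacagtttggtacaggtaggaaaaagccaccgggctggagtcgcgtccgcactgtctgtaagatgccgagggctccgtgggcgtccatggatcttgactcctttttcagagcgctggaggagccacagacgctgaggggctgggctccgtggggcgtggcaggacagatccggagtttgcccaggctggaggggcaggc
S1pr5: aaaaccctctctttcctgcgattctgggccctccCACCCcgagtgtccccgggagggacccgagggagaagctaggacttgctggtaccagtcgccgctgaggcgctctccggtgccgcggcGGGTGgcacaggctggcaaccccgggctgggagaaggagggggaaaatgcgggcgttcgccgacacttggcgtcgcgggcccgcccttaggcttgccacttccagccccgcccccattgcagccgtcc
The core occurred at 2 places for *Itga1*, 1 for *Itga2* and 2 for *S1pr5*, and 52.0% of all 32851 promoter windows of this length held it on either strand. The T-box letters GTGTGA, held by 12.3% of all windows, and the RUNX core TGTGGT, held by 14.0%, were found in none of these 3 windows on either strand. Of the windows not shown, that of *Itgam* held the KLF core at 3 places, that of *Klf2* at 1 and that of *Cxcr6* at 0. The *Cxcr6* window held the RUNX core at 1 place. A match is a description of the letters and not of binding.

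*Itga1* was highest in the innate labels and *Itga2* was highest in NK cells alone. In NK cells, *Itga1* had 65.3, 80.6, 74.4 and 80.3 CPM in libraries M1, M2, M5 and M6. In ILC it had 66.8, 68.5, 71.3 and 71.0 CPM in the same order. The 2 ranges overlapped, and *Itga1* was higher in NK cells in 3 of 4 libraries. It ranged from 17.3 to 33.6 CPM over the libraries in T cell EFF, from 20.2 to 38.1 in T cell MEM and from 14.9 to 35.7 in NKT, 3 ranges that also overlapped one another. No *Itga1* UMI was found in T cells (0 in 203 cells and 1169488 UMIs) or B cells (0 in 124 cells), and all 12 UMIs in T cell Naive came from a single cell of M6.

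NK cells had 46.7, 31.3, 40.4 and 47.0 CPM of *Itga2* in the 4 libraries, in the same order. ILC had 17.1, 14.4, 17.96 and 16.0 CPM. No ILC value reached the lowest NK value. T cell MEM, NKT and T cells followed at 10.7, 9.25 and 5.99 pooled CPM with overlapping ranges, T cell EFF had 1.93 to 4.40, and T cell Naive had no UMI. At 2000 UMIs per cell, 12.04% of NK cells (interval 11.1 to 13.1) and 4.27% of ILC (3.70 to 4.90) carried *Itga2*, against 0.153% of cells labelled Stroma. For *Itga1* the shares were 8.94% of NK cells, 11.0% of ILC and 0.205% of Stroma. Without thinning, *Itga2* was seen in 26.5% of NK cells, 16.9% of ILC and 2.17% of Stroma, where the median cell had 5397, 9774 and 40692 UMIs. Thinning a deep Stroma cell keeps a smaller part of its stray UMIs than thinning a shallower cell. The Stroma shares, here and below, can thus understate the background of the lymphocyte labels.

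**Figure D1:**
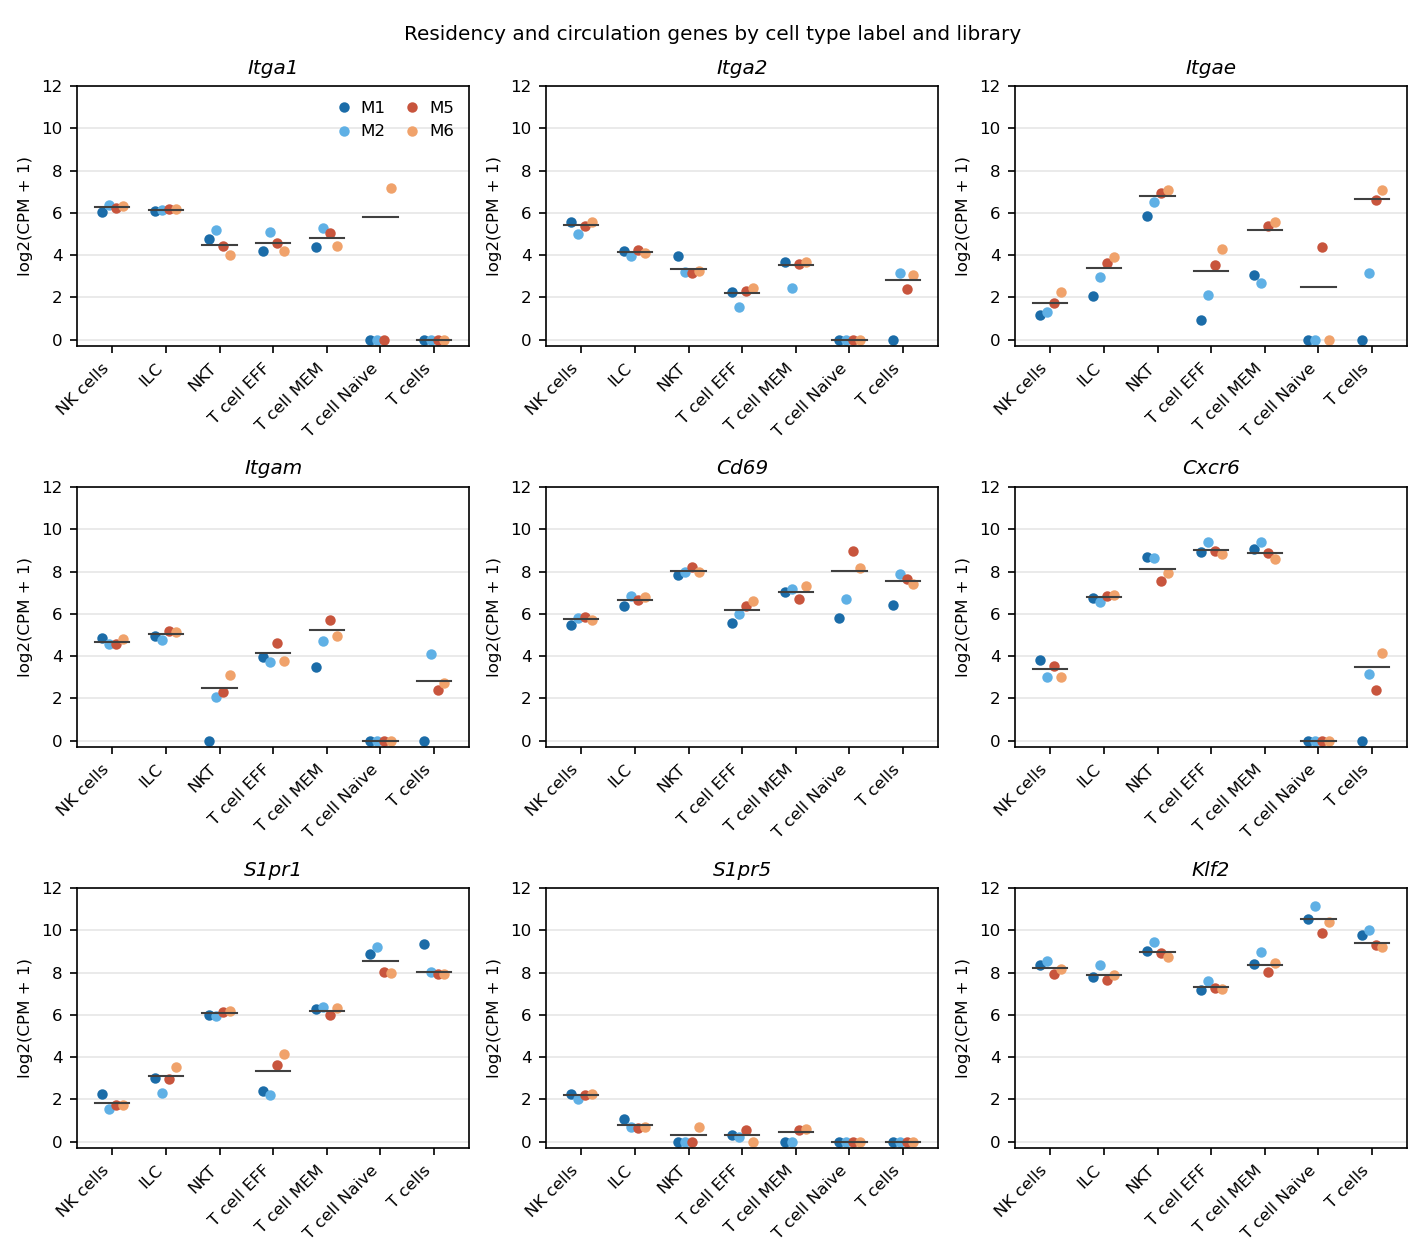
Level of each of the 9 genes as log2(CPM + 1) in the 7 lymphocyte labels. Each point is 1 library of unknown treatment and each line is the pooled level. *Itga2* and *S1pr5* were highest in NK cells in all 4 libraries, *Cxcr6* was highest in T cell MEM or T cell EFF, and *S1pr1* and *Klf2* were highest in T cell Naive and T cells. T cell Naive and T cells held only 55 and 203 cells.

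*Itga2* was less often seen in NK cells with an *Itga1* UMI than in those without. Of 4218 NK cells at 2000 UMIs, 364 (8.63%) had a UMI of *Itga1* only, 495 (11.7%) of *Itga2* only, 13 (0.308%) of both and 3346 (79.3%) of neither. *Itga2* was seen in 3.45% of NK cells with *Itga1* (13 of 377, interval 1.85 to 5.82) and in 12.9% of those without it (interval 11.8 to 14.0). By library, the share beside *Itga1* was 7.14, 0, 3.96 and 3.45% (M2 had 0 of 90 cells, interval up to 4.02%), and without it 14.3, 10.9, 13.6 and 12.5%. The share was lower beside *Itga1* in each library. The number of cells with both is set by the depth. Without thinning, *Itga2* was seen in 17.8% of NK cells with *Itga1* and in 29.4% of those without. In ILC the shares were 4.23% (21 of 496 cells) and 4.28%, and *Itga2* was lower beside *Itga1* in M1 and M2 and higher in M5 and M6. Depth differed between these cells, so the shares were taken again in cells of 4000 to 8000 UMIs, a band chosen after the values were seen. They were 5.81% (5 of 86, interval 1.91 to 13.05) and 14.4% (12.5 to 16.5) in NK cells, intervals that overlapped slightly, and 1.94% (2 of 103) and 5.46% in ILC. Among NK cells without CD3 in that band the shares were 8.33% (5 of 60, interval 2.76 to 18.4) and 16.0% (13.7 to 18.4), with overlapping intervals, and M1 ran the other way with 2 of 8 cells against 12.6%.

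**Figure D2:**
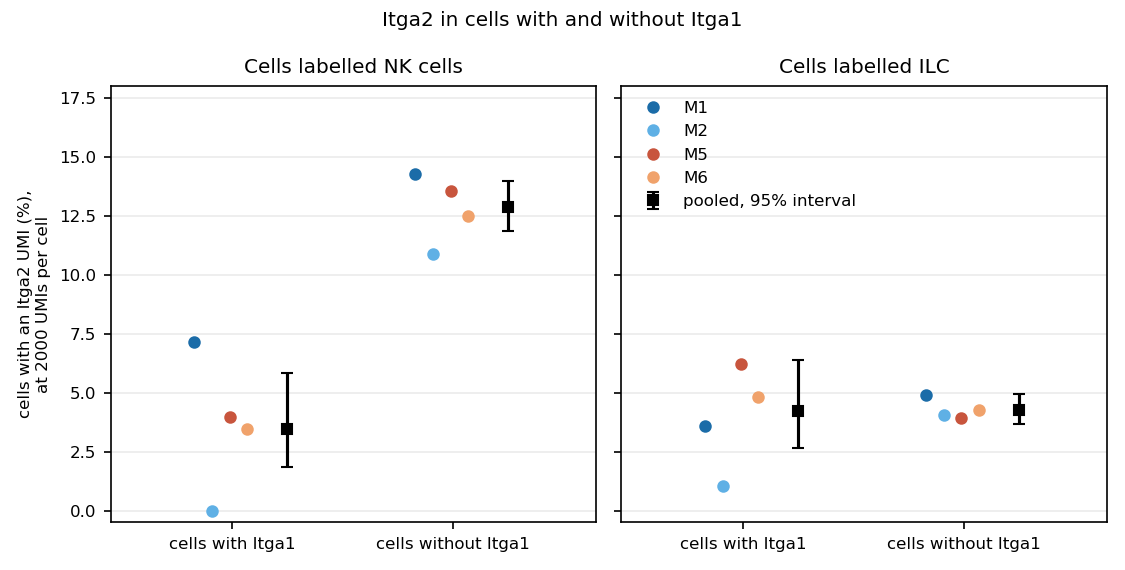
Percentage of cells with an *Itga2* UMI, at 2000 UMIs per cell, among cells with and without an *Itga1* UMI, in NK cells (left) and ILC (right). Colored points are libraries, and black squares are the pooled shares with exact 95% binomial intervals. In NK cells the share fell from 12.9% to 3.45% beside *Itga1*, and in ILC the shares were 4.28% and 4.23%.

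The 2 kinds of NK cells differed in *Klf2* and in several other genes. To leave T cells aside, this was examined in NK cells without a CD3 UMI, 245 with *Itga1* only and 413 with *Itga2* only. *Klf2* had 118, 115, 63.3 and 112 CPM in M1, M2, M5 and M6 in the *Itga1* cells, and 647, 903, 515 and 695 CPM in the *Itga2* cells, 6.63-fold more when pooled. All 4 libraries of one group lay above all 4 of the other. *Itgam* had 9.17 and 60.7 pooled CPM, and *Itgb2*, the chain it pairs with, had 89.4 and 239. *Eomes*, a T-box factor of mature NK cells, had 226 and 557 CPM. These 3 genes were higher in the *Itga2* cells in each of the 4 libraries. *S1pr5* had 27 UMIs (13.9 CPM, interval 9.15 to 20.2) in the *Itga2* cells and 3 UMIs (1.15 CPM, 0.236 to 3.35) in the *Itga1* cells, and was also higher in each library. *Itgb1*, the shared partner of both chains, had 454 CPM in the *Itga1* cells and 380 in the *Itga2* cells. *Gzma* and *Prf1*, encoding cytotoxic granule proteins, had 21403 and 2154 CPM in the *Itga1* cells and 16557 and 1671 in the *Itga2* cells, higher in the *Itga1* cells in 3 of 4 libraries. *Ncr1*, the gene of the NK receptor NKp46, ran the same way with 535 and 446 CPM, also in 3 of 4. *Rora*, a gene of the ILC marker list, had 16.4 and 71.0 CPM, and *Cd69* had 39.7 and 70.5, both higher in the *Itga2* cells in each library.

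Depth and myeloid transcripts moved with these 2 groups of cells. The *Itga1* cells had a median of 8370 UMIs and the *Itga2* cells 3783, and *C1qa* had 12.2 and 52.5 CPM. In cells of 4000 to 8000 UMIs only, 55 and 154 of them, *Klf2* had 204 CPM (interval 158 to 259) and 683 (627 to 743), *Itgam* had 18.3 and 65.2, *Eomes* had 195 and 590, and *S1pr5* had 0 and 13 UMIs. The medians in the band still differed, 5964 and 4872 UMIs. *Klf2*, *Itgam* and *Eomes* were again higher in the *Itga2* cells when pooled. The intervals of *S1pr5* overlapped (up to 11.2 CPM, and 8.68 to 27.9), as did those of *Itgb2*, with 149 CPM (110 to 197) and 206 (175 to 240). The part of depth was not tested further. In ILC without a CD3 UMI, *Klf2* had 106 CPM in 276 *Itga1* cells and 390 in 108 *Itga2* cells, again higher in the *Itga2* cells in each library. *Cxcr6* had 43.4 and 22.6 CPM there, with no common direction over the libraries. In the band of 4000 to 8000 UMIs it had 121 CPM (91.9 to 156) in 80 *Itga1* cells and 26.5 (10.6 to 54.5, from 7 UMIs) in 47 *Itga2* cells. It was higher in the *Itga1* cells in each library, but the intervals overlapped in M1, M2 and M5. M1 rests on 2 UMIs against 1, and M2 had 0 UMIs in 6 *Itga2* cells.

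**Figure D3:**
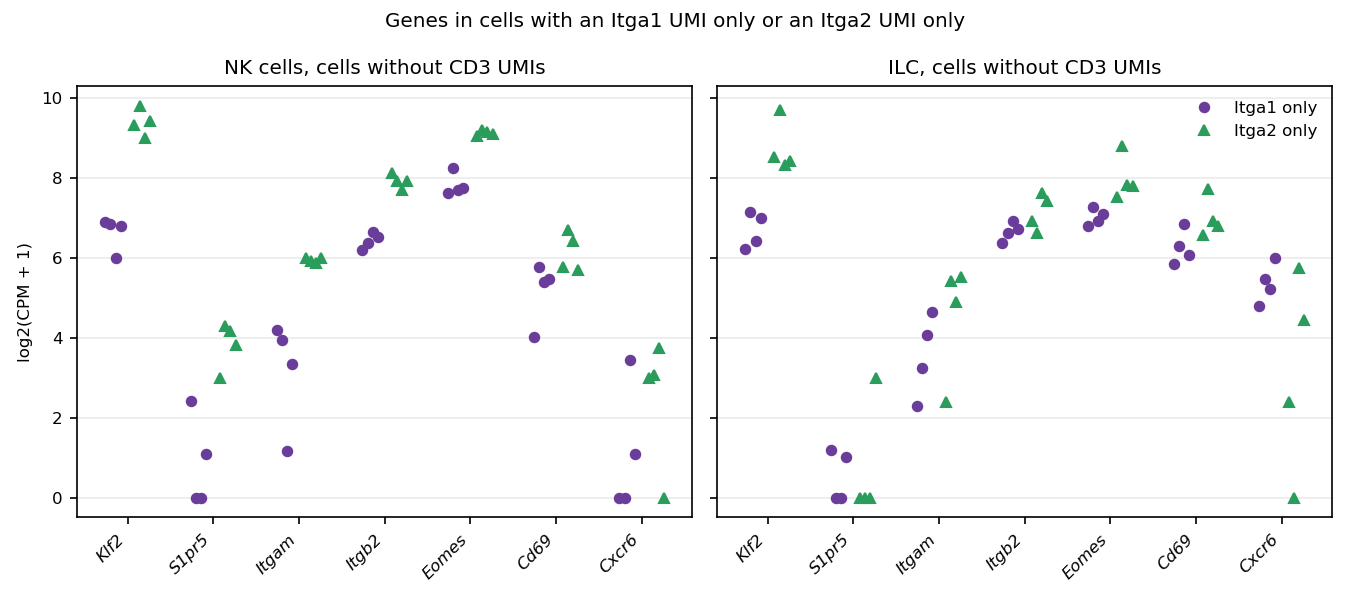
Level of 7 genes, as log2(CPM + 1), in cells without a CD3 UMI that carried a UMI of *Itga1* only (circles) or of *Itga2* only (triangles) at 2000 UMIs per cell, in NK cells (left) and ILC (right). Each symbol is 1 library. In NK cells the circles and triangles of *Klf2*, *S1pr5*, *Itgam*, *Itgb2* and *Eomes* do not overlap, and those of *Cd69* and *Cxcr6* do.

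*Itgae* (chromosome 11, 73090583 to 73147446) was higher in cells with *Foxp3* in 3 labels. Its level was 57.7, 90.8, 121 and 135 CPM in NKT, in M1, M2, M5 and M6. It was 7.34, 5.44, 40.0 and 46.6 CPM in T cell MEM, and 0.901, 3.39, 10.5 and 18.7 in T cell EFF. The order of the libraries was nearly the same in these 3 labels, with M1 and M2 below M5 and M6. The label T cells had 101 pooled CPM, and NK cells had 2.33, the lowest pooled level of the 7 labels. Cells with a *Foxp3* UMI made up 7.71% of T cell EFF and held 80.0% of its *Itgae* UMIs, 363 of 454. The level was 54.4 CPM in T cell EFF with *Foxp3* and 1.98 without, a 27.4-fold difference that ranged from 11.0-fold in M5 to 39.6-fold in M2 and was 55.1-fold without M5. In T cell MEM it was 97.8 and 13.6 CPM, and in NKT 209 and 38.5. The cells with *Foxp3* were higher in each of the 4 libraries in these 3 labels, although M1 and M2 gave only 6 and 9 such cells in T cell MEM, and the M2 value rests on 1 *Itgae* UMI in them (12.7 CPM) against 5 in the rest (4.88 CPM). The label T cells, where 54.2% of cells held a *Foxp3* UMI, had 114 and 83.4 CPM and no common direction.

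The share of cells with *Foxp3* also differed between libraries. It was 15.9, 23.1, 47.3 and 43.0% of NKT in M1, M2, M5 and M6, 3.61, 4.92, 22.4 and 20.8% of T cell MEM, and 3.11, 2.36, 11.8 and 12.4% of T cell EFF. Without the cells with *Foxp3*, *Itgae* still ranged from 0.424 CPM in M1 to 3.42 in M5 in T cell EFF, and from 2.85 in M1 to 22.1 in M6 in T cell MEM. In NKT it was 35.9, 20.5, 34.1 and 54.4 CPM in M1, M2, M5 and M6, where M1 lay above M5. These shares are not thinned, and the cells with *Foxp3* were deeper, with medians of 16232 against 9854 UMIs in T cell EFF, 7365 against 6174 in T cell MEM and 5132 against 3925 in NKT. By coreceptor transcripts, a split added after the values were seen, *Itgae* had 69.7 CPM in 140 T cell EFF with *Cd4* and no *Cd8* UMI and 2.59 in 3117 with *Cd8* and no *Cd4*. *Itgb7*, its partner chain, had 367 pooled CPM in NKT, 227 in T cell MEM and 77.9 in T cell EFF, the order of *Itgae* in these 3 labels, but had 150 in ILC and 123 in NK cells, beside 9.55 and 2.33 CPM of *Itgae*. *Cdh1*, which encodes the ligand E-cadherin, was at 1.46 to 6.19 pooled CPM in NK cells, ILC and the T cell EFF, T cell MEM and NKT labels. *Haspin* lies inside *Itgae* on the opposite strand, and the sources used here do not state how strand entered the counting.

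**Figure D4:**
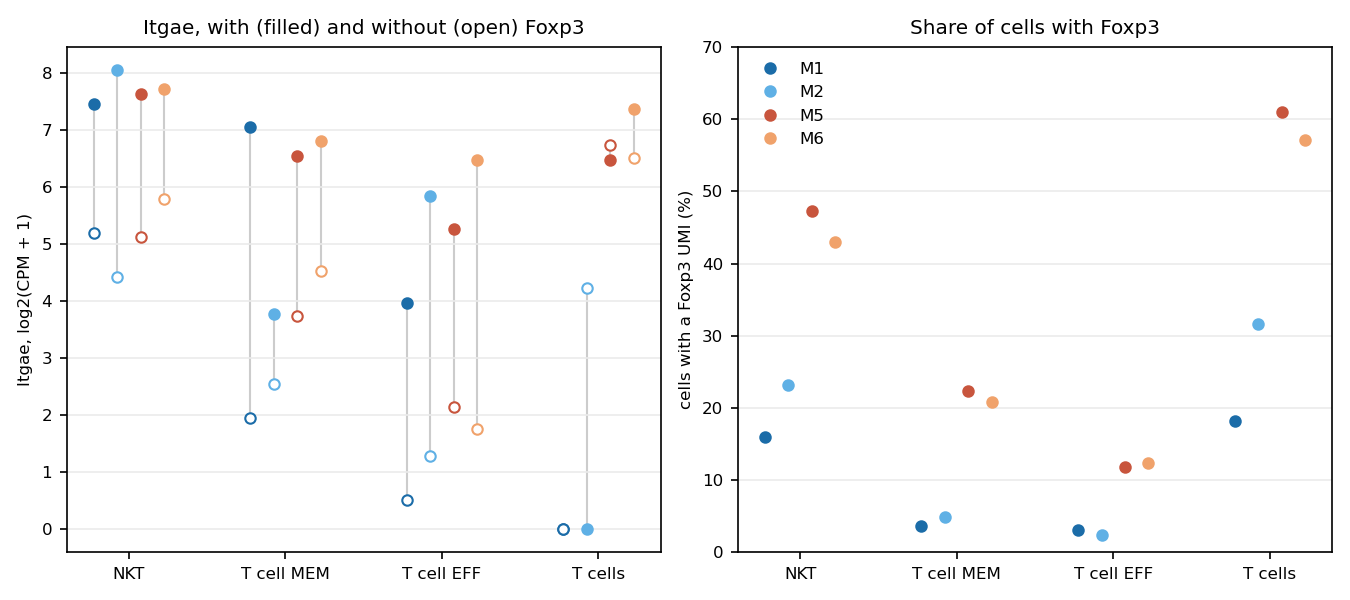
Left, *Itgae* as log2(CPM + 1) in cells with (filled) and without (open) a *Foxp3* UMI, in 4 labels and 4 libraries joined by lines. Right, percentage of cells with a *Foxp3* UMI. In NKT, T cell MEM and T cell EFF the filled circle lies above the open one in each library, and the share of cells with *Foxp3* is higher in M5 and M6 than in M1 and M2.

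*Itgam* (chromosome 7, 128062640 to 128118491) was low in all lymphocyte labels beside its level in Myeloid cells, 255 CPM. It had 27.6, 22.5, 23.0 and 26.9 CPM in NK cells and 30.2, 26.1, 36.0 and 34.3 in ILC, in M1, M2, M5 and M6. Its CPM exceeded those of NK cells in ILC of each library, but 7.25% of NK cells and 4.07% of ILC carried a UMI at 2000 UMIs per cell. The level and the share thus ran in opposite directions, and no order was read from them. In ILC, *Itgam* had 12.4 CPM in cells without CD3 and 45.2 in cells with it, and the macrophage gene *Lyz2* moved the same way, from 127 to 825 CPM. In NK cells without CD3, where *Lyz2* had 121 CPM, *Itgam* had 26.5. In T cell MEM it ranged from 10.1 CPM in M1 to 52.0 in M5, and neutrophil markers summed to 17.2 to 410 CPM over the libraries of that label. *Gm49368* overlaps *Itgam* on the same strand, and its part in these counts was not tested.

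*Cd69* (chromosome 6, 129267325 to 129275436) was found in every label. It had 229 to 294 CPM over the libraries in NKT, 105 to 158 in T cell MEM, 83.1 to 115 in ILC, 45.9 to 95.3 in T cell EFF and 44.1 to 57.4 in NK cells. NKT stood clear of those 4 labels, and ILC exceeded NK cells in each library without any overlap. T cell Naive had 55.3 to 494 CPM and T cells had 85.9 to 232, and both of these ranges overlapped that of NKT. B cells, where *Cd69* is also an activation gene, had 260 CPM. In T cell EFF the values were 45.9, 62.7, 82.7 and 95.3 CPM in M1, M2, M5 and M6. Over 23 sums of a label in a library with 20 cells or more, the log2 level of *Cd69* had a Pearson's r of 0.86 with *S1pr1*, 0.73 with *Klf2*, 0.67 with *Itgae*, 0.06 with *Cxcr6* and −0.33 with *Itga1*. The r of *Cd69* was −0.46 with *Itga2*, −0.68 with *Itgam* and −0.69 with *S1pr5*. These sums share libraries and depth, and the values are a description only.

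*Cxcr6* (chromosome 9, 123806475 to 123811760, inside *Fyco1* on the opposite strand) separated the labels more widely than the integrins. It had 482, 677, 505 and 451 CPM in T cell EFF in M1, M2, M5 and M6. It had 529, 664, 463 and 389 CPM in T cell MEM, and these ranges overlapped. NKT had 189 to 409 CPM, ILC 94.8 to 116 and NK cells 7.02 to 13.2, each range clear of the next. The NKT range overlapped that of T cell MEM, and T cells, at 0 to 16.7 CPM, overlapped NK cells. T cell Naive had no UMI in 55 cells and 217683 UMIs, an interval of up to 16.9 CPM. At 2000 UMIs per cell, 59.3% of T cell EFF, 43.3% of T cell MEM, 13.7% of ILC and 1.28% of NK cells carried it, against 0.217% of Stroma and 0 of 112 B cells. *Cxcr6* was lower in cells with *Foxp3* than without in NKT (78.1 and 422 CPM), T cell MEM (212 and 551) and T cell EFF (237 and 565), and so in each library, the reverse of *Itgae*. In T cell EFF it had 579 CPM in cells with *Cd8* and 283 in cells with *Cd4*.

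To ask where the ILC label differed from NK cells, a gene with 10 CPM or more over both labels was called where it passed 2-fold in the same direction in all 4 libraries. *Cxcr6* was the only one of the 6 members tested that was called higher, beside 1.74% of the 7546 genes tested. It had 110 pooled CPM in ILC and 9.40 in NK cells, and log2 ratios of 2.92, 3.54, 3.32 and 3.87 in M1, M2, M5 and M6. *Itga2* was the only member called lower, beside 0.053% of genes, 4 in all, with a pooled log2 ratio of −1.28 and −1.50 to −1.06 over the libraries. *Itga1* had a log2 ratio of −0.11, −0.23 to 0.03 over the libraries, and *Klf2* had −0.34. *Cd69* lay close to the limit, at 0.94 and 0.79 to 1.07. *S1pr5*, under 10 CPM and so not tested, had 142 UMIs in NK cells and 48 in ILC, or 3.59 and 0.709 CPM, and was higher in NK cells in each library.

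Part of the *Cxcr6* level of ILC went with T cell transcripts. ILC with a CD3 UMI had 151 CPM and those without had 46.1, with 25.7, 37.3, 57.5 and 55.8 in M1, M2, M5 and M6. NK cells without CD3 had 5.34 CPM. Among cells without CD3 in both labels, *Cxcr6* was again called higher and *Itga2* lower, and no other member was called, beside 0.271% of 7369 genes higher and 0.0543% lower. *Itga2* there had 16.99 CPM in ILC and 48.5 in NK cells, *Itga1* had 80.9 and 74.3, *Itgae* had 2.74 and 1.39, and *S1pr1* had 0.836 and 1.78. *S1pr1* and *Itgae* were thus lower in ILC without CD3 than in ILC with CD3, where they had 11.9 and 13.9 CPM. Without CD3, pooled *Itgae* was still higher in ILC than in NK cells, and pooled *S1pr1* was lower. Over all cells, *S1pr1* was higher in ILC, with 7.62 and 2.55 CPM. The ILC with CD3 also had a median of 13329 UMIs against 7660, and the *Lyz2* level given above.

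Lists of genes known to work with the members were counted by the same rule. The residency, circulation and integrin lists include members themselves. A call of a member on a list, here and below, therefore repeats its own result and is no separate support. The medians of these lists include members as well. Of 14 tested genes on the residency list, *Cxcr6* and *Xcl1*, which encodes a chemokine of NK cells and resident lymphocytes, were higher in ILC than in NK cells, and none was lower, beside 1.74% and 0.053% of all genes tested, shares that hold for each of the lists in this comparison. The list's median log2 ratio was 0.63, against 0.00 over all genes tested. Of 13 tested genes on the circulation list, *Ccr7* and *Il7r* were higher and none was lower, with a median of −0.33. *Ccr7*, encoding a lymph node homing receptor, had 73.0 CPM in ILC and 21.4 in NK cells but was not called among cells without CD3, whereas *Il7r*, encoding a cytokine receptor of ILC and T cells, was called in both. Of 13 tested integrin chains, only *Itga2* was called. Of 6 tested ligand genes, *Cxcl16* was higher in ILC, 37.9 and 7.15 CPM, and it was not called among cells without CD3. Its level was 293 CPM in cells labelled Myeloid and 240 in those labelled DC. Macrophage markers were also higher in ILC than in NK cells, as given above, and their part in this call was not tested. The 5 tested upstream genes, *Tgfb1* and its receptors among them, gave no call.

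*S1pr1* (chromosome 3, 115710433 to 115715072) was highest in T cell Naive and in T cells, a label where 54.2% of cells held a *Foxp3* UMI. It had 470, 598, 257 and 255 CPM in T cell Naive and 644, 264, 244 and 247 in T cells, in M1, M2, M5 and M6. It had 76.2, 81.6, 62.2 and 79.3 CPM in T cell MEM and 61.6 to 70.6 in NKT. T cell EFF had 4.34, 3.58, 11.4 and 16.6, ILC had 3.90 to 10.7 and NK cells had 1.96 to 3.73. T cell MEM and NKT overlapped, and both stood clear of T cell EFF, ILC and NK cells. At 2000 UMIs per cell, 54.7% of T cell Naive, 15.3% of T cell MEM, 2.14% of T cell EFF and 0.806% of NK cells carried *S1pr1*, against 0.0831% of Stroma. The Stroma share can understate the background, as given above. Within T cell MEM it had 158 CPM in 204 cells with *Cd4* and 32.4 in 692 with *Cd8*.

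*Klf2* (chromosome 8, 72319033 to 72321656) had the same leading labels, with 929 to 2268 CPM in T cell Naive and 589 to 1047 in T cells. NKT had 422 to 702, T cell MEM 259 to 501, NK cells 244 to 370 and ILC 200 to 323, each overlapping the next. T cell EFF was lowest, at 143, 196, 151 and 147 CPM in M1, M2, M5 and M6, and did not overlap ILC. Its background cannot be set from Stroma, where *Klf2* had 428 CPM and was seen in 42.6% of cells. *S1pr5* (chromosome 9, 21242912 to 21248443) was nearly limited to NK cells, with 3.86, 3.06, 3.56 and 3.83 CPM in M1, M2, M5 and M6, and 1.78% of NK cells at 2000 UMIs against 0.133% of ILC and 0.0192% of Stroma. All 4 NK values lay above all ILC values, the next label in the order. NK cells without CD3 had 4.55 CPM and those with CD3 had 1.89.

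To describe how T cell MEM and T cell EFF differed, the same rule was used. The labels came from these same expression profiles, as given above, so the calls can be partly set by the labelling. The labels also differed in T cell make-up. *Cd4* had 68.6 pooled CPM in T cell MEM and 17.99 in T cell EFF, and 16.45% and 7.71% of cells held a *Foxp3* UMI. Within T cell MEM, *S1pr1* was higher in cells with *Cd4* than in cells with *Cd8*, as given above. The part of this make-up in the calls and list medians was not tested. *S1pr1* was the only one of 7 members tested that was called higher in T cell MEM, beside 0.442% of 7692 genes, and none was called lower, beside 3.08%. Its log2 ratio was 2.82 pooled and 3.85, 4.17, 2.34 and 2.19 in M1, M2, M5 and M6. *Klf2* had a pooled log2 ratio of 1.04 and missed the limit in M5, at 0.77. *Cxcr6* had −0.18, and *Itgae* had 1.92 with 0.55 in M2. Of 16 tested genes on the circulation list, 6 were higher in T cell MEM, with a list median of 1.32 against 0.02 over all genes. Beside *S1pr1* these were *Tcf7* and *Lef1*, encoding transcription factors of naive and memory T cells, with 67.6 and 53.5 CPM in T cell MEM and 14.8 and 19.0 in T cell EFF, and *Sidt1*, *Cmah* and *Il7r*. Of 15 tested residency genes none was called, with a median of 0.06. *Itgb7* was the only called one of 12 integrin chains, and among the ligands *Col1a2*, a collagen gene of stroma, was lower at 11.0 against 78.6 CPM.

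*Cxcr6* and the collagen receptor chains ran in opposite directions between T cell EFF and NK cells. *Cxcr6* was higher in T cell EFF, with log2 ratios of 5.08 to 6.37 over the libraries, beside 2.85% of 7636 genes. *Itga1* and *Itga2* were lower, at −2.14 to −1.24 and −3.46 to −3.08, beside 1.95%. The other 3 tested members, *Itgam*, *Cd69* and *Klf2*, were not called. On the residency list 4 of 14 tested genes were higher (*Cxcr6*, *Icos*, *Inpp4b* and *Tnfsf10*) and *Itga1* was lower. Of 14 tested circulation genes, 3 were higher (*Ccr7*, *Cx3cr1* and *Il7r*) and 5 were lower, *Lef1*, *Eomes*, *Sidt1* and *Klrg1* among them. Of 13 tested integrin chains, 3 were lower (*Itga1*, *Itga2* and *Itgax*, the last with 6.77 and 31.4 CPM) and none was higher.

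NKT differed from T cell EFF in 4 of 7 tested members, all higher in NKT, beside 1.65% of 7702 genes. The log2 ratio was 3.54 for *Itgae* (2.78 to 4.95 over the libraries), 2.74 for *S1pr1* (2.02 to 3.77), 1.82 for *Cd69* (1.38 to 2.30) and 1.67 for *Klf2* (1.52 to 1.87). None was called lower, beside 2.27%. *Cd4* had 145 pooled CPM in NKT and 17.99 in T cell EFF, and 36.1% and 7.71% of cells held a *Foxp3* UMI. *Itgae* was higher in cells with *Foxp3* in both labels, as given above. The part of this T cell make-up in the calls was not tested. Erythroid markers (*Hbb-bs* and *Hba-a1*) summed to 1308 CPM in NKT, 0 to 4289 over the libraries, against 5.17 in T cell EFF, and their part in the result was not tested. *Cxcr6* had a log2 ratio of −0.92 and *Itgam* one of −1.65, with 19 *Itgam* UMIs in NKT. The comparisons with T cell EFF share its cells, as do those with NK cells, so their calls are not independent. Among the other listed genes, *Icos*, *Klf3*, *Lef1*, *Samhd1*, *Klrg1*, *Il7r*, *Itgb7* and *Smad3* were higher in NKT and *Cx3cr1* was lower.

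**Figure D5:**
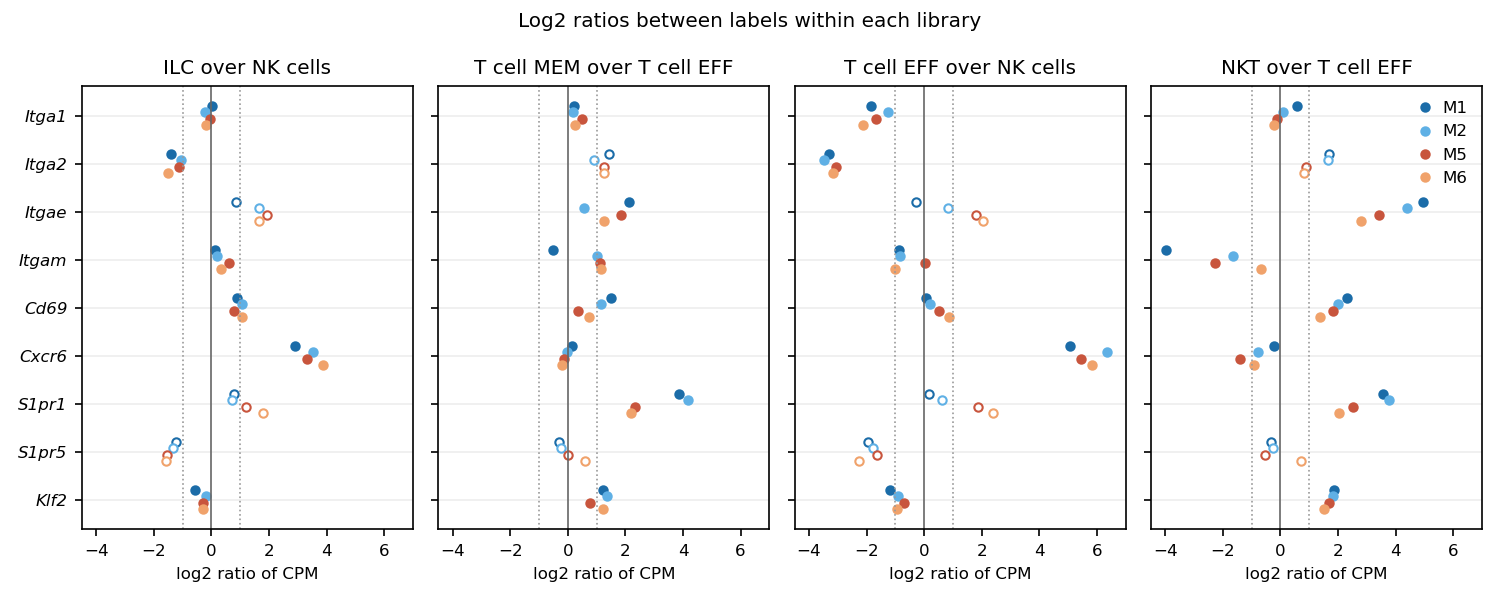
Log2 ratio of CPM (pseudocount 1 CPM) of the 9 genes in 4 comparisons of labels, with 1 point per library. Open points are genes under 10 CPM over both labels, which were not tested, and dotted lines mark the 2-fold limits. *Cxcr6* lies right of the limit in ILC and in T cell EFF over NK cells in all 4 libraries, *Itga2* lies left of it, and *S1pr1* lies right of it in T cell MEM and NKT over T cell EFF.

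Exit genes were compared between single cells with and without a residency gene, at 2000 UMIs per cell. In NK cells, *Klf2* was seen in 17.5% of 377 cells with *Itga1* and in 44.4% of those without. *S1pr1* and *S1pr5* were seen in 0 of the 377 (interval up to 0.974%), against 0.885% and 1.95% of those without, so that a difference in *S1pr1* was not detectable at this depth. The *Klf2* share was lower beside *Itga1* in each library. These NK cells include those with CD3 and differed in depth, as given above, and *Klf2* had 428 CPM in Stroma. The part of depth and of free RNA in these shares was not tested. In T cell MEM, *S1pr1* was seen in 7.07% of 495 cells with *Cxcr6* (interval 4.97 to 9.70) and in 21.6% of those without (18.5 to 25.0), and *Klf2* in 26.1% and 47.2%. Both were lower beside *Cxcr6* in each library. T cell MEM holds cells with *Cd4* and cells with *Cd8*, which differed in *S1pr1* as given above. They were not taken apart in this comparison. In T cell EFF the *S1pr1* shares were 1.19% and 3.53%, with the order reversed in M1 (1.07% and 0.619%), and in ILC they were alike, 1.29% and 1.28%. In NKT, *S1pr1* was seen in 4.63% of 108 cells with *Itgae* (1.52 to 10.5) and in 14.9% of those without. In T cell EFF the pooled order was the reverse, with *S1pr1* in 10.9% of 55 cells with *Itgae* (6 cells, all from M5 and M6) and in 2.01% of the rest, whereas M1 and M2 had 0 of 1 and 0 of 7 cells, and in T cell MEM it was in 22.4% of 67 (13.1 to 34.2) and 14.9%. Cells with *Cd69* carried *Klf2* more often than cells without it in all 5 labels examined and in each library except M6 of T cell MEM (39.1% and 41.1%). The pooled shares were 51.1% and 41.0% in NK cells, 40.8% and 29.1% in ILC, 22.5% and 16.7% in T cell EFF, 44.4% and 36.3% in T cell MEM, and 53.7% and 42.6% in NKT.

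The genes most like each member over the 23 sums were found by Pearson's r of log2(CPM + 1), as a description. For *Cxcr6* they were *Cd8a* (0.97), *Slc17a6* (0.94) and *Lag3* (0.94), and for *Itga2* they were *Atp1b1* (0.94), *Trdc* (0.93) and *1700025G04Rik* (0.90). For *S1pr1* they were *Clint1* (0.98), *Slamf6* (0.97) and *Heg1* (0.97), and for *Klf2* *Vps37b* (0.96), *Gimap6* (0.95) and *Malat1* (0.94). For *Cd69* they were *Tnfrsf25* (0.97), *Zfp36l1* (0.94) and *Irf1* (0.93), and for *Itga1* *Zadh2* (0.96), *Sirt3* (0.93) and *Flot1* (0.92). *Itgae* was followed by *Poldip3*, *Vrk1* and *Coq8a* (0.93 each), *Itgam* by *Grina*, *Car5b* and *Efhd2* (0.88 to 0.89), and *S1pr5* by *Me2*, *Nup210* and *Dok2* (0.85 to 0.87).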

How the data were processed

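Single-cell RNA-seq of CD45-enriched cells from CT26 tumors (10x 3′ kit) was analysed from a table of UMI counts per gene and cell and a table of cell labels. The authors made the deposited counts with Cell Ranger 3.0.2 on mm10 (GRCm38), kept cells with more than 500 UMIs and labelled cells by correlation with ImmGen profiles. Doublet removal is not given in the sources used here. The 4 library names match none of the 6 sample labels, so no library was grouped and the treatment tests were not run.

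Counts were summed per label and library and scaled to CPM. Log2 ratios used a pseudocount of 1 CPM, and a gene with 10 CPM or more over both labels was called when it passed 2-fold in each of the 4 libraries. Shares used cells thinned to 2000 UMIs. Mitochondrial UMIs over 10%, a doublet score over 0.25 (Scrublet in scanpy 1.11.5) and 3 or more macrophage UMIs marked cells left out in alternatives only. Further alternatives were the pseudocount, CPM minimum, fold limit, scaling, thinning depth, a mean over cells and leaving out each library. The scripts (Python 3.11.15, numpy 2.4.6, scipy 1.17.1) were tested on simulated data.

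The members and lists were chosen with earlier results of these data known. Genes named are the members, called list genes and the 3 genes most correlated with each member. *Itgb1*, *Itgb2*, *Eomes*, *Gzma*, *Prf1* and marker genes were named beside them. The splits by *Cd4* and *Cd8*, *Foxp3* and CD3 and the depth band were added after the values were seen. The values of 1 listed gene, which is counted in its lists, are not reported here.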

Additional observations from a re-analysis of the deposited data

Results flagged for a closer look

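Members were also detected in 2 labels that no comparison used, each with 8 UMIs or more. In cells labelled DC, *Itgae* had 102 CPM, *Itga1* 43.0, *Itga2* 2.21, *Itgam* 17.3, *Cd69* 58.3, *Cxcr6* 23.5, *S1pr1* 3.43 and *Klf2* 226. In cells labelled Stem cells, *Itga1* had 11.8 CPM, *Itgam* 26.6, *Cd69* 14.8 and *Klf2* 87.0.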

How the results depend on the processing

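No paired analysis was possible because the replicate numbers of the sample labels cannot be tied to the libraries. A test between cell labels over the 4 libraries was not run, since libraries of unknown treatment were not used as replicates. The ILC to NK log2 ratio of *Itga1*, −0.11 as reported, was −0.0086 without cells over 10% mitochondrial UMIs and 0.16 as a mean of CPM over cells. As a mean over cells, that of *Itga2* was −1.61 and that of *Cxcr6* 3.72, and the T cell EFF to NK ratio of *Cxcr6* was 6.21. With a pseudocount of 5 CPM these 3 were −1.11, 2.996 and 5.20, *S1pr1* in T cell MEM over T cell EFF was 2.43 and *Itgae* in NKT over T cell EFF was 3.09. *Cxcr6* in T cell EFF over NK cells was 5.87 without doublet-scored cells and 5.83 without cells with macrophage UMIs.

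Leaving out 1 library, the log2 ratios ranged from −1.34 to −1.18 for *Itga2* and from 3.26 to 3.56 for *Cxcr6* in ILC over NK cells, from 5.46 to 5.83 for *Cxcr6* in T cell EFF over NK cells, from 2.61 to 3.12 for *S1pr1* and from 3.36 to 3.86 for *Itgae*. The share with *Itga2* ranged from 2.61 to 4.53% in NK cells with *Itga1* and from 12.5 to 13.4% in those without.

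Thinned to 4000 UMIs the share was 7.85% and 18.4% in NK cells with and without *Itga1*, and unthinned 17.8% and 29.4%. At 1000 UMIs it was 6.75% without *Itga1*. In ILC it was 0.348% and 2.35% at 1000 UMIs, 7.21% without *Itga1* at 4000, and 17.3% and 16.7% unthinned. In cells of 4000 to 8000 UMIs, added after the values were seen, it was 14.4% in NK cells without *Itga1* and 1.94% and 5.46% in ILC.

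With a fold limit of 1.5, 248 genes were higher and 17 lower in ILC than in NK cells, and 180 higher and 439 lower in T cell MEM than in T cell EFF. This limit also called *Cd69* higher in ILC and *Klf2* in T cell MEM, and raised the calls from 2 to 6 on the residency list in ILC and from 6 to 11 on the circulation list in T cell MEM. With a minimum of 1 CPM, *S1pr5* was also called lower in ILC, 206 genes were higher in ILC, and 53 higher and 375 lower in T cell MEM. Without cells with CD3, 20 were higher in ILC. The cause of these shifts was not tested. Of 422 recomputed member ratios, 411 kept their sign. Those that turned were ratios of *Itga1*, *Itgam* and *S1pr5* that had not been called, among them *Itgam* in ILC over NK cells without cells with macrophage UMIs and as a mean over cells. A called ratio passes 2-fold in every library, so its sign is no measure of stability. The block on replicate numbers and DESeq2 were not run.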
